A study of Mus musculus with 6 samples.

Results

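The enzymes of glycolysis exist in somatic forms and, in male germ cells, in forms encoded by separate genes, and 10 such genes were followed in testes with and without the long non-coding RNA Teshl. They were taken by symbol from tables of 25165 gene symbols: the sperm genes Pgk2, Gapdhs, Ldhc, Aldoart1, Aldoart2 and Eno4, and the somatic genes Pgk1, Gapdh, Ldha and Ldhb. All 10 were found, each on 1 row of every table, and all 10 were among the 12952 genes tested. Total RNA of whole testes from 8-week-old C57BL/6 mice had been sequenced in 3 libraries titled KO, lacking the RNA named NR_038002 in the labels, and 3 libraries titled WT. The genotype field of the labels contradicts the titles in all 6 libraries, since it gives wild type for those titled KO and NR_038002-/- for those titled WT, and groups here go by title. The labels tell neither how the RNA was removed nor whether each library is a different mouse. A p-value therefore speaks only of the scatter among libraries, some of which could be technical. Every difference below is KO minus WT.

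Glycolysis turns glucose into pyruvate, and lactate dehydrogenase interconverts pyruvate and lactate. In the mouse, sperm rely on glycolysis in the tail to drive movement, and several of its enzymes are anchored to the fibrous sheath there. Meiotic cells silence their X chromosome, which carries Pgk1, and the autosomal copy Pgk2 serves in its place from meiosis onwards. Male mice without Pgk2, Gapdhs, Ldhc or Eno4 have impaired sperm movement or fertility.

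The gene 1700027A15Rik, which holds the targeted RNA, was examined to check the titles. It was at 0.385 FPKM in 1 KO library and listed at 0 in the other two, against 1028, 989 and 1081 FPKM in the WT libraries, so it was low in the libraries titled KO. FPKM, a unit judged here from the values, are fragments scaled by transcript length and by the number of mapped fragments. Levels may then be compared between genes, with less certainty for those with near copies, such as Gapdh and Aldoart1. Depth, estimated from the steps between low values, was 27300000 to 39300000 fragments in a library, where 3 fragments on a 1 kb transcript equal 0.0764 to 0.11 FPKM. Pgk1, the lowest of the 10 genes, then rested on about 320 fragments in its lowest library, a counting error of 5.57%, and Ldhc on about 61000, an error of 0.404%; these errors cover counting only. Germ cell markers were present as the label testis implies: the protamine gene Prm1 averaged 10218 ± 360 FPKM in KO and 8608 ± 531 FPKM in WT libraries, and the synapsis gene Sycp1 averaged 36.8 ± 2.29 FPKM in KO and 40.0 ± 2.56 FPKM in WT libraries (SD, n = 3 each).

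None of the 10 genes passed the test between KO and WT libraries (limma on log2(FPKM + 1), Benjamini-Hochberg adjusted p below 0.05 over all tested genes). The smallest adjusted p among them was 0.149 by limma, for Ldhb. Over all 12952 genes, 149, or 1.15%, passed, 0.788% as higher and 0.363% as lower in KO libraries. The total of 149 was 73 without KO replicate 2, 77 without KO replicate 3, 81 without WT replicate 1 and 233 without WT replicate 3, with 0 of the 10 genes called each time. At an unadjusted limma p under 0.05 stood 3 of the 10, Ldhb, Pgk1 and Pgk2, where the share of all tested genes was 14.3%. In the same 3 the KO and the WT libraries did not overlap, which held for 21.7% of all tested genes. Pgk1 and Pgk2 were higher in KO libraries, as were 5.92% of all tested genes with no overlap, and Ldhb was lower, as were 15.8%. The median difference of the 10 genes was 0.02 on the log2(FPKM + 1) scale, with 5 positive and 5 negative, and that of all tested genes was -0.04. The sperm genes had a median difference of 0.04 (6 genes) and the somatic genes one of -0.07 (4 genes). In absolute size the median was 0.079 for the 10 genes and 0.082 for all tested genes. The 95% intervals of the 10 differences reached from -0.35 at the lowest to 0.38 at the highest, which on this scale is 0.784-fold to 1.30-fold.

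**Figure D1:**
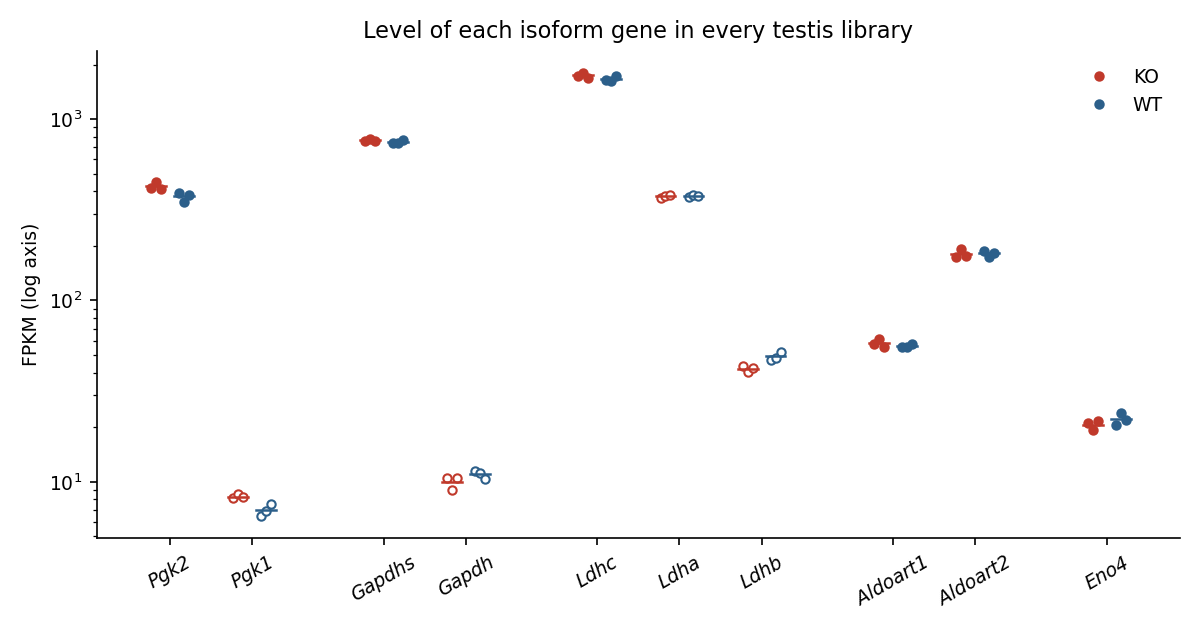
Level in FPKM (log axis) of the 10 isoform genes in each library, KO in red to the left of WT in blue, with filled points for sperm genes, open points for somatic genes and a line at each group mean. Levels run from Ldhc, at 1631 to 1797 FPKM, down to Pgk1, at 6.46 to 8.57 FPKM, and KO and WT libraries stand apart in Pgk2, Pgk1 and Ldhb.

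By level, the genes stood in the same order in all 6 libraries except for a single neighbouring pair. Ldhc came first with a mean of 1704 FPKM over the 6 libraries, the 7th highest of all 25165 symbols, and Gapdhs followed with 755 FPKM at rank 39. Pgk2 (400.1 FPKM) and Ldha (376 FPKM) came next, and their ranges overlapped, with Pgk2 higher in 5 of 6 libraries. Then came Aldoart2 at 181, Aldoart1 at 57.2, Ldhb at 45.6, Eno4 at 21.4, Gapdh at 10.5 and Pgk1 at 7.63 FPKM, and in each of these steps the higher gene was higher in 6 of 6 libraries. Somatic genes thus held both the lowest ranks and, with Ldha at rank 120, one close to Pgk2 at rank 111. Spread over the 6 libraries was smallest for Ldha, with a coefficient of variation of 1.33%, and largest for Pgk1, with 10.7%.

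Phosphoglycerate kinase makes the first ATP of glycolysis. Pgk1, its somatic gene, lies on chromosome X at 106187100 to 106203699 (GRCm38, plus strand), with 11 exons in its longest transcript. Pgk2 lies on chromosome 17 at 40207015 to 40208640 (minus strand) as a single exon, the form of a retrogene copied from a processed transcript. Over 1291 aligned bases their transcripts were 77.2% identical. The 250 bases before each RefSeq start are shown because the pair divides its expression between somatic and germ cells. Capitals mark the letters TGACGT, the core of the cAMP response element, GGGCGG, the GC box, and CCAAT, each on either strand. The windows are chr17:40208610-40208859 on the minus strand and chrX:106186850-106187099 on the plus strand (RefSeq, GRCm38.p6), written 5′ to 3′.
Pgk2: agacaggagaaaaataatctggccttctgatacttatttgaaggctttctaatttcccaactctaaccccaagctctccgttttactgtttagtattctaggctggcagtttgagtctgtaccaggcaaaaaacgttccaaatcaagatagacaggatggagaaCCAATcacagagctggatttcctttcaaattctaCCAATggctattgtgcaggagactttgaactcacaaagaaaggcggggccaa
Pgk1: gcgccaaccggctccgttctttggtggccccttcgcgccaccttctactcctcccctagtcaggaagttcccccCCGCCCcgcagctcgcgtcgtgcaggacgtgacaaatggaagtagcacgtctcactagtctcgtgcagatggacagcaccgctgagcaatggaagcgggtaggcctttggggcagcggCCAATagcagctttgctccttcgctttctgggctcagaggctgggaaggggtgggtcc
The Pgk2 window held 3 CpG dinucleotides and 2 CCAAT matches, and the Pgk1 window 17 CpG, 1 GGGCGG and 1 CCAAT match. Of 32851 windows of the same length in the promoter table, 33.8% held CCAAT, 32.7% GGGCGG and 6.47% TGACGT. A match describes letters and does not show a bound factor.

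Pgk2 was at 416, 449 and 411 FPKM in the KO libraries, against 390.3, 351 and 383 FPKM in the WT libraries. All 3 KO libraries were above all 3 WT libraries. The means were 425 ± 20.6 FPKM in KO and 375 ± 20.9 FPKM in WT libraries (SD, n = 3 each), a ratio of 1.13, and the log2(FPKM + 1) difference of 0.18 (SE 0.06, 95% interval 0.05 to 0.31) did not pass limma's threshold (adjusted p = 0.213). Pgk1 was at 8.11, 8.57 and 8.20 FPKM in the KO libraries, against 6.46, 6.90 and 7.51 FPKM in the WT libraries. Here too the groups did not overlap and KO was the higher. The means were 8.29 ± 0.245 FPKM in KO and 6.96 ± 0.529 FPKM in WT libraries (SD, n = 3 each), a ratio of 1.19 (log2(FPKM + 1) difference 0.23, SE 0.07, limma adjusted p = 0.190). Both genes of the step thus had values of like direction and size, and neither passed. Of 527 tested X-linked genes, 75 were called higher and 0 lower, against 102 higher and 47 lower among all 12952 tested genes. The median log2(FPKM + 1) difference was 0.05 for the X-linked genes and -0.04 for all tested genes. A larger difference than that of Pgk1 was found in 178 of the X-linked genes. The summed level of 8 late spermatid markers was 34806 to 36890 FPKM in KO and 29682 to 33567 FPKM in WT libraries, with 0 of 8 called and 5 of 8 differences positive. Most of this sum was Prm1, Prm2, Tnp1 and Tnp2, and the other 4 markers summed to 4651 to 4913 FPKM in KO and 4764 to 4970 FPKM in WT libraries, which overlap. Tnp1 overlaps the targeted gene on the opposite strand. It averaged 5397 ± 222 FPKM in KO and 5110 ± 460 FPKM in WT libraries (SD, n = 3 each), and its groups overlapped. In Prm1, Prm2, Tnp2 and Akap4 all KO libraries were above all WT libraries, as they were in 5.92% of all tested genes. In Gpx4 all KO libraries were below all WT libraries, as they were in 15.8% of all tested genes. The groups overlapped in Odf1 and Smcp. The sums of 8 spermatocyte markers, 616 to 665 FPKM in KO and 631 to 675 FPKM in WT libraries, and of 8 round spermatid markers, 957 to 1150 FPKM in KO and 876 to 1066 FPKM in WT libraries, also overlapped. Differences were positive in 4 of 8 spermatocyte markers and in 8 of 8 round spermatid markers, with 0 called in either list. An unadjusted limma p under 0.05 was found in 4 of 8 late spermatid, 1 of 8 round spermatid and 0 of 8 spermatocyte markers. For all tested genes that share was 14.3%. The part of these cells in the values of Pgk2 was not tested. In whole testis, a different number of cells of a type and a different amount of RNA per cell cannot be told apart.

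Glyceraldehyde-3-phosphate dehydrogenase takes the step before, and its sperm form carries an added anchor at its start. Gapdhs lies on chromosome 7 at 30729775 to 30743681 (minus strand, 11 exons), and Gapdh on chromosome 6 at 125161715 to 125166467 (minus strand). Gapdhs was at 761, 778 and 757 FPKM in the KO libraries, against 737, 735 and 765 FPKM in the WT libraries. The groups overlapped, since 1 WT library was above 2 of the KO libraries. The log2(FPKM + 1) difference was 0.04 (SE 0.04, 95% interval -0.06 to 0.13, limma adjusted p = 0.673). Gapdh was at 10.5, 9.06 and 10.5 FPKM in the KO libraries, against 11.5, 11.2 and 10.4 FPKM in the WT libraries. The groups overlapped in a single WT library, and the log2(FPKM + 1) difference was -0.13 (SE 0.07, limma adjusted p = 0.429).

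The level of Gapdh, a gene that other tissues express strongly, is uncertain here because many pseudogenes copy it. In GENCODE M21, 142 other genes have a transcript at least 90% identical to Gapdh over at least 50% of its length, and no other gene meets that limit for Pgk2, Gapdhs, Ldhc, Aldoart2 or Eno4. Among the symbols of these tables, 9 are such genes, of which 7 are typed as pseudogenes. The other two, Peli2 and Vmn2r60, are typed as protein-coding and were left out of the sum below; Peli2 was at 15.6 ± 0.381 FPKM in KO and 16.8 ± 1.07 FPKM in WT libraries (SD, n = 3 each). Gm6981 alone was at 42.4 ± 1.54 FPKM in KO and 45.5 ± 1.62 FPKM in WT libraries, and Gm12070 at 10.7 ± 0.763 FPKM in KO and 12.5 ± 1.06 FPKM in WT libraries (SD, n = 3 each), so both group means were above those of Gapdh itself in each case. The sources used here do not tell how reads were divided among the copies. Gapdh and these 7 symbols summed to 64.5 ± 0.0708 FPKM in KO and 70.3 ± 1.41 FPKM in WT libraries (SD, n = 3 each). Every KO library was below every WT library in this sum, which was formed after the values were seen (exact two-sided permutation p = 0.1, the smallest that 3 against 3 libraries allow). Gapdh also overlaps Iffo1 on the opposite strand, which had 14.6 ± 0.748 FPKM in KO and 14.8 ± 0.969 FPKM in WT libraries, and no source used here gives the strand setting of the counting.

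Lactate dehydrogenase is a tetramer of subunits from Ldha (the muscle form), Ldhb (the heart form) and Ldhc (the testis form, made from meiosis onwards). Ldha and Ldhc are neighbours on chromosome 7, at 46841475 to 46855627 and 46861203 to 46878142, both on the plus strand, and 5575 bp lie between them. Ldhb lies on chromosome 6 at 142490249 to 142507957 (minus strand). All 3 have 8 exons in their longest transcript. Transcripts of Ldhc were 73.8% identical to those of Ldha over 1009 bases and 66.7% identical to those of Ldhb over 821 bases. The 250 bases before their RefSeq starts are shown because these 3 genes hold the highest of the 10 levels and the smallest p, with capitals as above. The windows are chr7:46861013-46861262 (plus), chr7:46845554-46845803 (plus) and chr6:142507958-142508207 (minus). Ldhc and Ldha each have 2 listed starts, of which 1 is shown, and Ldhb has 1. The whole Ldha window lies inside the GENCODE gene, as do the last 60 bases of the Ldhc window and the last 31 of the Pgk2 window, so the TGACGT matches of Ldhc lie at and just after the GENCODE start.
Ldhc: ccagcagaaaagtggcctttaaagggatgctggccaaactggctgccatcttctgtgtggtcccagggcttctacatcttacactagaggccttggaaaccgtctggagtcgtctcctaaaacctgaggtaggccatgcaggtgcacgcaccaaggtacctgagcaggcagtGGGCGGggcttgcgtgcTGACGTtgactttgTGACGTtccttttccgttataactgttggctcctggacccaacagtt
Ldha: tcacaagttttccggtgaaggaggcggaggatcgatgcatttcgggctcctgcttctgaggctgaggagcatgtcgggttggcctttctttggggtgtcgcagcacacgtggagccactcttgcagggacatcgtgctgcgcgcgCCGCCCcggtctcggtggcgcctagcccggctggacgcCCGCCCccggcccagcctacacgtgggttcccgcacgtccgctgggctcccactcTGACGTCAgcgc
Ldhb: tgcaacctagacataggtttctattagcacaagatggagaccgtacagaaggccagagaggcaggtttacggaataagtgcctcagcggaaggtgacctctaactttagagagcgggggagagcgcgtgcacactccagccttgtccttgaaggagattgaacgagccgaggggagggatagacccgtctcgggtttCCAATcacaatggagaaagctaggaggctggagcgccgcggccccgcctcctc
The Ldhc window held TGACGT at 2 places and GGGCGG at 1. In the Ldha window TGACGT was matched on both strands of 1 palindrome, beside 2 GGGCGG matches. The Ldhb window held CCAAT once and neither of the others.

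Ldhc was at 1738, 1797 and 1685 FPKM in the KO libraries, against 1638, 1631 and 1733 FPKM in the WT libraries. The groups overlapped because the highest WT library was above the lowest KO library. Its log2(FPKM + 1) difference was 0.06 (SE 0.05, 95% interval -0.04 to 0.16, limma adjusted p = 0.536). Ldha was at 368, 375 and 382 FPKM in the KO libraries, against 373, 380.5 and 375 FPKM in the WT libraries. These ranges lay nearly on top of each other, with a log2(FPKM + 1) difference of -0.01 (SE 0.04, 95% interval -0.10 to 0.09, limma adjusted p = 0.951). With median-of-ratios and upper-quartile scaling that small value was positive, at 0.04 and 0.05, and so it was without KO replicate 1 (0.00689) or WT replicate 2 (0.00152).

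Ldhb was at 43.6, 40.4 and 42.4 FPKM in the KO libraries, against 46.9, 48.4 and 52.1 FPKM in the WT libraries. All 3 KO libraries were below all 3 WT libraries. The means were 42.1 ± 1.62 FPKM in KO and 49.2 ± 2.67 FPKM in WT libraries (SD, n = 3 each), a ratio of 0.856. The log2(FPKM + 1) difference was -0.22 (SE 0.06, 95% interval -0.35 to -0.09) and missed limma's threshold (adjusted p = 0.149). The 6 spermatogonial markers summed to 34.5 to 40.4 FPKM in KO and 41.8 to 49.4 FPKM in WT libraries, with 0 of 4 tested called and all 4 differences negative. Most of this sum was Uchl1, and the other 5 markers summed to 13.5 to 15.9 FPKM in KO and 15.3 to 16.6 FPKM in WT libraries, which overlap. The defining markers Zbtb16 and Sall4 were under 1 FPKM in both groups. The 8 Sertoli cell markers summed to 362 to 407 FPKM in KO and 384 to 435 FPKM in WT libraries, which overlap, with 0 of 7 tested called. Of these 7 differences, 5 were negative and 2 positive. The 7 Leydig cell markers summed to 1529 to 1761 FPKM in KO and 1701 to 1764 FPKM in WT libraries, which overlap. Their 7 differences were all negative, with 0 called, where the median of all tested genes was -0.04. An unadjusted limma p under 0.05 was found in 2 of 4 spermatogonial, 0 of 7 Sertoli cell and 1 of 7 Leydig cell markers tested. The share of all tested genes was 14.3%. The part of these cells in the value of Ldhb was not tested. The genes most like Ldhb over the 6 libraries were Ube2m (Pearson r = 0.994 of log2(FPKM + 1)), which encodes a NEDD8-conjugating enzyme, Runx1t1 (r = 0.989), a transcriptional corepressor gene, and Lcmt1 (r = 0.989), a methyltransferase gene. With 6 libraries in 2 groups 372 of 12942 genes had an r over 0.9, so the likeness is a description only.

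**Figure D2:**
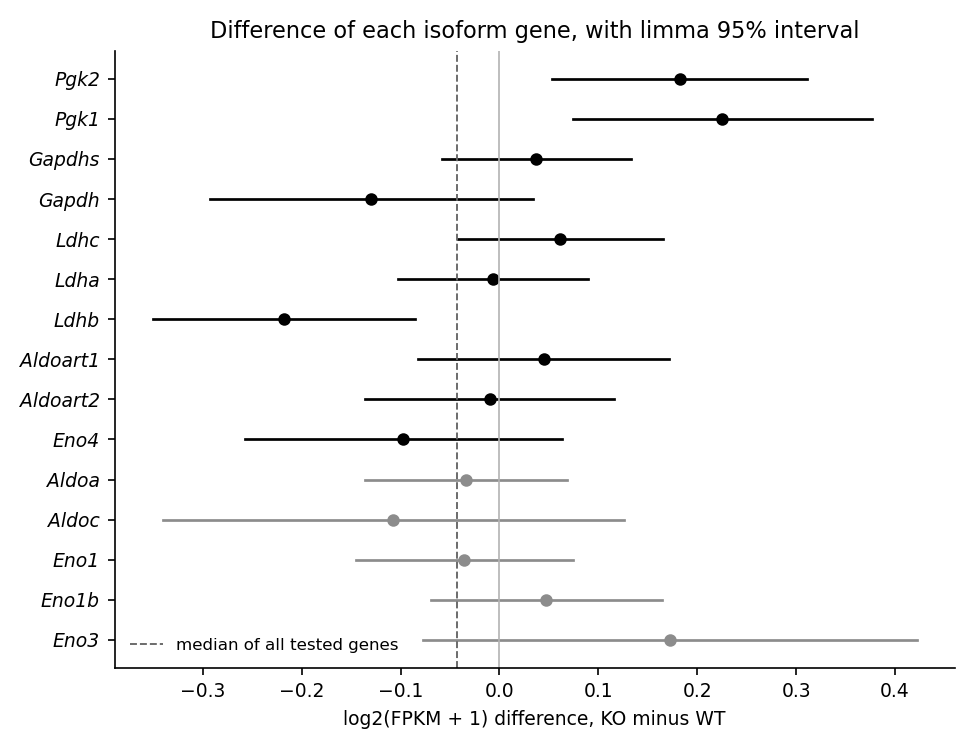
Difference between KO and WT libraries on the log2(FPKM + 1) scale with its limma 95% interval, for the 10 isoform genes (black) and for the other tested aldolase and enolase genes (grey); the dashed line is the median of all tested genes. The intervals of Pgk2 (0.05 to 0.31), Pgk1 (0.07 to 0.38) and Ldhb (-0.35 to -0.09) lie to one side of 0, but none of the genes passed after adjustment over 12952 genes.

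Aldolase splits fructose 1,6-bisphosphate, and the mouse has 2 intronless copies of Aldoa that are active in spermatids, Aldoart1 and Aldoart2. Aldoart1 is on chromosome 4 at 72850583 to 72852634 (minus strand) and Aldoart2 on chromosome 12 at 55565239 to 55566896 (plus strand), each with 1 exon. Their transcripts were 92.6% (Aldoart1, over 1510 bases) and 89.0% (Aldoart2, over 1341 bases) identical to those of Aldoa, so reads of Aldoart1 and Aldoa in particular may have been shared. Aldoart1 was at 57.4, 61.7 and 55.3 FPKM in the KO libraries, against 55.5, 55.5 and 57.9 FPKM in the WT libraries. The KO libraries spanned all of the WT values, and the log2(FPKM + 1) difference was 0.04 (SE 0.06, 95% interval -0.08 to 0.17, limma adjusted p = 0.712). Aldoart2 was at 173, 192 and 176 FPKM in the KO libraries, against 186, 175 and 184 FPKM in the WT libraries. Here too the KO libraries spanned the WT values (log2(FPKM + 1) difference -0.01, SE 0.06, 95% interval -0.14 to 0.12, limma adjusted p = 0.940), and the sign turned with median-of-ratios (0.03) and upper-quartile scaling (0.04). It also turned without KO replicate 1 (0.0195), KO replicate 3 (0.00594) or WT replicate 1 (0.00925). Aldoa itself, which is also transcribed in germ cells, was at 173 ± 0.901 FPKM in KO and 177 ± 4.37 FPKM in WT libraries (SD, n = 3 each; limma adjusted p = 0.728). Aldoc averaged 2.10 FPKM in KO and 2.33 FPKM in WT libraries.

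Enolase makes phosphoenolpyruvate, and Eno4 encodes its divergent form of the sperm tail. It lies on chromosome 19 at 58943425 to 58971421 (plus strand, 14 exons), overlapping Hspa12a on the other strand. No alignment to Eno1 was found. Eno4 was at 21.1, 19.4 and 21.5 FPKM in the KO libraries, against 20.5, 24.1 and 22.0 FPKM in the WT libraries. The groups overlapped, and the log2(FPKM + 1) difference was -0.10 (SE 0.07, 95% interval -0.26 to 0.06, limma adjusted p = 0.528). Hspa12a was at 2.98 ± 0.107 FPKM in KO and 3.16 ± 0.210 FPKM in WT libraries (SD, n = 3 each). Of the other enolase genes, Eno1, the widely expressed form, averaged 163 ± 6.03 FPKM in KO and 167 ± 3.19 FPKM in WT libraries. Eno1b, a copy 99.5% identical to Eno1 over 1652 bases, averaged 47.6 ± 1.498 FPKM in KO and 46.0 ± 1.22 FPKM in WT libraries, and Eno3, the muscle form, 19.2 ± 2.36 FPKM in KO and 16.96 ± 2.19 FPKM in WT libraries (SD, n = 3 each). The neuronal form Eno2 was at 0.0845 FPKM in KO and 0.0704 FPKM in WT libraries. None of the 3 tested passed limma's threshold (smallest adjusted p = 0.477).

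The balance between sperm and somatic genes differed widely between steps. With the near copies of Gapdh left out, in none of the 5 steps did it separate KO from WT libraries. For phosphoglycerate kinase, Pgk2 made up 98.1%, 98.1% and 98.0% of the summed FPKM of Pgk2 and Pgk1 in the KO libraries, against 98.4%, 98.1% and 98.1% in the WT libraries. The ratio of Pgk2 to Pgk1 averaged 51.3 ± 1.11 in KO and 54.1 ± 5.47 in WT libraries (SD, n = 3 each; exact two-sided permutation p of the share = 0.7). The difference in share, -0.0872 percentage points, was 0.0119 without WT replicate 1. Gapdhs held 98.7 ± 0.124% of its step in KO and 98.5 ± 0.103% in WT libraries (exact p = 0.3). With the 7 pseudogene symbols counted as Gapdh, a choice made after seeing the data, the share was 92.2 ± 0.102% in KO and 91.4 ± 0.213% in WT libraries (exact p = 0.1).

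For lactate dehydrogenase, Ldhc held 80.8%, 81.2% and 79.9% of the FPKM of Ldha, Ldhb and Ldhc in the KO libraries, against 79.6%, 79.2% and 80.2% in the WT libraries. The means of 80.7 ± 0.695% in KO and 79.7 ± 0.522% in WT libraries differed by 1.003 percentage points (exact p = 0.2). Aldoart1 and Aldoart2 together held 57.6 ± 1.46% of the aldolase FPKM in KO and 57.0 ± 0.91% in WT libraries (exact p = 0.6), and the difference of 0.646 percentage points was -0.193 without KO replicate 2. Eno4 held only 8.25 ± 0.325% of the enolase FPKM in KO and 8.81 ± 0.764% in WT libraries (exact p = 0.3; SD, n = 3 each throughout). Adjusted over the 5 steps by the Benjamini-Hochberg method, the exact permutation p-values were 0.5 to 0.7. With 3 libraries against 3 the test cannot fall below 0.1, so it bears on direction and overlap more than on size.

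**Figure D3:**
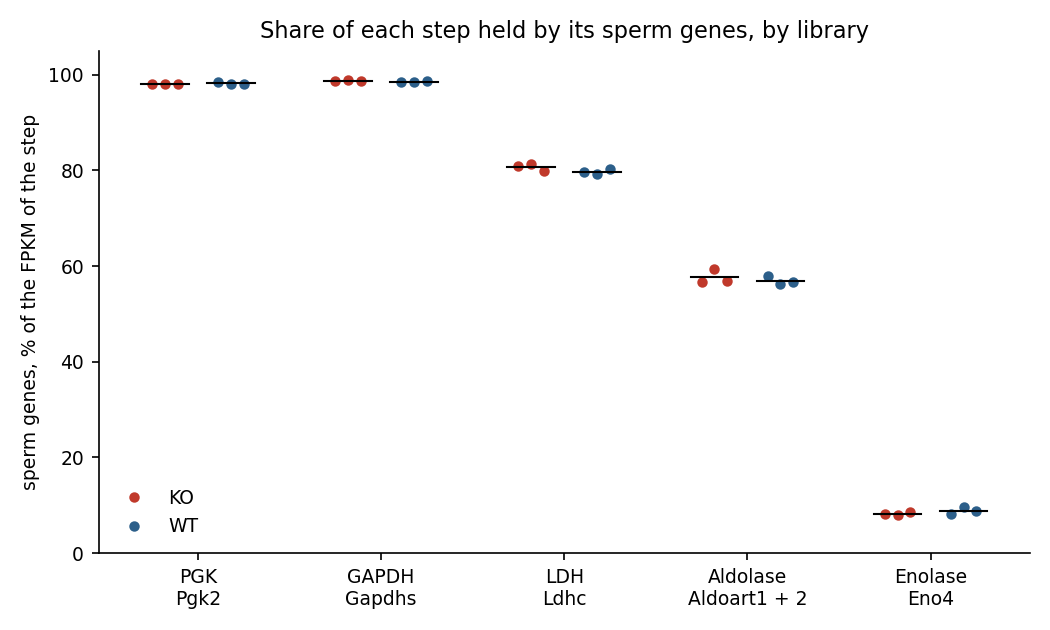
Percent of the summed FPKM of each step held by its sperm genes, in every library (KO red, left; WT blue, right; lines are group means). The share falls from 98.7% (Gapdhs) in KO libraries to 8.25% (Eno4), while KO and WT libraries overlap in each of the 5 steps.

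Sequence before the RefSeq start was also compared across the set. A RefSeq window was matched for 9 of the 10 genes. For Gapdhs, Ldhc and Ldha, with 2 listed starts each, 1 window was used. Among the sperm genes the count of CpG dinucleotides in 250 bases was 1 for Gapdhs, 3 for Pgk2, 7 for Aldoart2 and 8 for Ldhc, but 22 for Eno4. Among the somatic genes it was 8 for Gapdh, 14 for Ldhb, 17 for Pgk1 and 25 for Ldha. The whole Gapdh window, like that of Ldha, lies inside the GENCODE gene. The median of all 32851 windows was 6, with quartiles of 2 and 16. TGACGT was found in Ldhc and Ldha alone of the 9 windows, and the absence of these letters elsewhere says nothing about any factor.

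The rest of the pathway was read from a list of 53 genes covering the other steps, sugar and lactate transport, fructose 2,6-bisphosphate and the entry of pyruvate into mitochondria. Of these, 43 were tested and 0 passed limma's threshold in either direction (2 of 43 at an unadjusted limma p under 0.05, where the share of all tested genes was 14.3%). The median difference on the log2(FPKM + 1) scale was -0.04, equal to that of all tested genes at 2 decimals, with 10 values above 0 and 33 below. The groups did not overlap in 7 of the 43, where the share of all tested genes was 21.7%. The smallest limma adjusted p was 0.122, for Pkm, which encodes the pyruvate kinase that makes the last ATP of the pathway. Pkm was at 123, 118 and 114 FPKM in the KO libraries, against 139, 135 and 134 FPKM in the WT libraries, with all KO libraries below all WT libraries (log2(FPKM + 1) difference -0.20, SE 0.05).

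The most abundant genes of 9 other groups on the list did not pass limma's threshold, and KO and WT libraries overlapped in 8 of them. Hk1, the hexokinase gene with a germ cell transcript, was at 380 ± 8.79 FPKM in KO and 373 ± 14.9 FPKM in WT libraries. Gpi1 (glucose phosphate isomerase) was at 137 ± 1.78 FPKM in KO and 139 ± 1.31 FPKM in WT libraries, and Pfkm (phosphofructokinase) at 43.1 ± 1.90 FPKM in KO and 46.6 ± 3.65 FPKM in WT libraries. Tpi1 (triose phosphate isomerase) was at 172 ± 0.797 FPKM in KO and 178 ± 2.51 FPKM in WT libraries, with all KO libraries below all WT libraries, and Pgam2 (phosphoglycerate mutase), the highest of the 53, at 562 ± 7.21 FPKM in KO and 577 ± 33.5 FPKM in WT libraries. Ldhal6b, an intronless relative of the lactate dehydrogenase genes, was at 319 ± 9.87 FPKM in KO and 326 ± 3.84 FPKM in WT libraries (SD, n = 3 each for all). Pfkfb4, which sets fructose 2,6-bisphosphate in testis, was at 12.5 ± 0.739 FPKM in KO and 13.3 ± 0.335 FPKM in WT libraries. The glucose transporter gene Slc2a3 was at 237 ± 11.8 FPKM in KO and 240.3 ± 4.47 FPKM in WT libraries, and Mpc2, of the mitochondrial pyruvate carrier, at 231 ± 23.0 FPKM in KO and 212 ± 16.2 FPKM in WT libraries. The limma adjusted p of these 9 genes lay between 0.458 and 0.868.

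**Figure D4:**
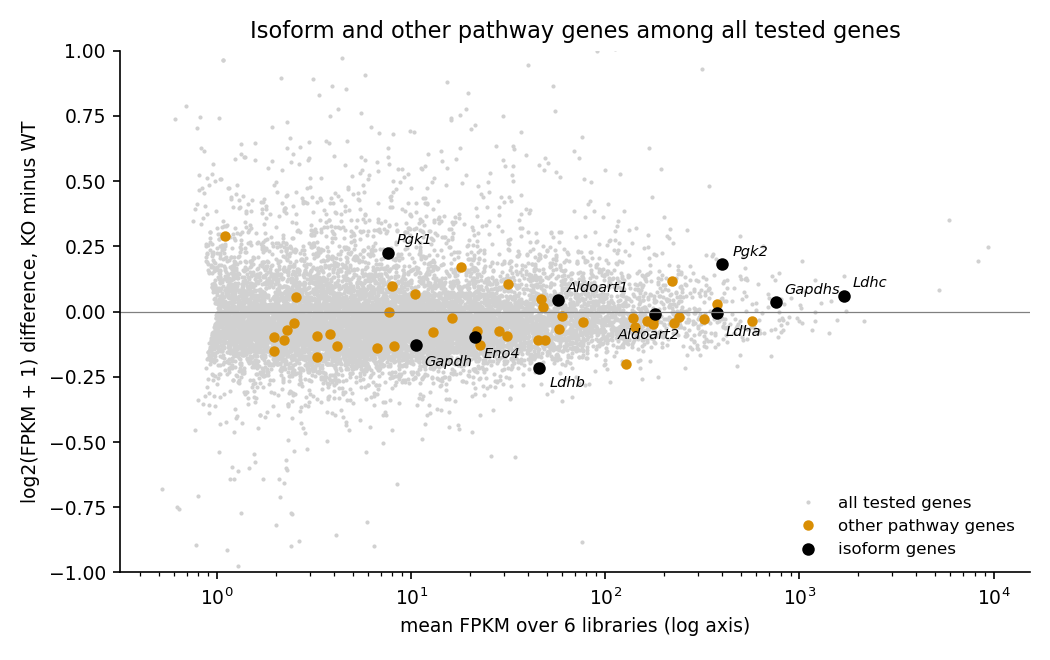
Difference between KO and WT libraries on the log2(FPKM + 1) scale against the mean FPKM over 6 libraries (log axis), for the 10 isoform genes (black, named), the other tested pathway genes (orange) and all tested genes (grey); 81 genes lie beyond the axis limits of -1 and 1. The isoform genes lie between -0.22 (Ldhb) and 0.23 (Pgk1), over levels from 7.63 to 1704 FPKM.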

How the data were processed

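Per the labels' protocols, Trizol-extracted RNA went into the NEBNext Ultra II Directional kit; the submitters' processing notes name HISAT2 and mm10. For quantifier, annotation and strand setting: not given in the sources used here. The deposited files hold FPKM, judged by their values, since value times transcript length clusters at multiples of a step, from which depth was estimated. Rows were summed per symbol. Genes averaging 1 FPKM or more in either group (12952) entered limma 3.58.1, run in R 4.3.3 with trend and robust estimation on log2(FPKM + 1), adjusted by Benjamini-Hochberg at 0.05; fold changes of low genes are understated on this scale. Step shares were tested with exact two-sided permutation (SciPy 1.17.1). The fit was tested on simulated data, with changes larger than any difference of the 10 genes, so smaller changes were not covered. Near copies were found with BLAST 2.17.0; positions are GENCODE M21 (GRCm38, the assembly of mm10). Members and lists were chosen with earlier results of these data known. Named genes are the 10 members, the target, the other aldolase and enolase genes, pathway genes that passed (0), the highest gene of each pathway group and the 3 genes most like the member of smallest p. One gene under this rule is not reported here. Markers, near copies and overlapping genes are named beside the results they touch, and the genes of the closing observations were chosen after their values were seen. Alternatives were other pseudocounts, filters and scalings, no robust estimation, a replicate block, the highest row per symbol, other forms of the share, and each library left out.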

Additional observations from a re-analysis of the deposited data

How the results depend on the processing

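Under all 16 alternative settings 0 of the 10 isoform genes and 0 of the tested pathway genes passed limma's threshold; the smallest limma adjusted p of an isoform gene was 0.0753 (Pgk1, upper-quartile scaling, with a range for Pgk1 up to 0.51). Of 160 values of the 10 genes, 151 kept their direction. The 9 that turned were 4 of Ldha and 5 of Aldoart2. With median-of-ratios scaling they were 0.037 for Ldha and 0.033 for Aldoart2, and with upper-quartile scaling 0.046 and 0.042. With single libraries left out, Ldha ranged from -0.0195 to 0.00689 (positive in 2 of 6) and Aldoart2 from -0.0556 to 0.0195 (positive in 3 of 6). Among step shares, leaving out single libraries gave differences of -0.138 to 0.0119 points for phosphoglycerate kinase (positive without WT replicate 1) and -0.193 to 1.15 points for aldolase (negative without KO replicate 2). The other 3 steps kept their direction under every alternative run. The size for glyceraldehyde-3-phosphate dehydrogenase depended on how Gapdh was counted. With the 7 pseudogene symbols added, a choice made after seeing the data, its difference went from 0.167 to 0.839 points. The exact permutation p then went from 0.3 to 0.1. The number of genes called over the whole table moved from 149 to 88 without a filter, where more genes were tested, and to 73 to 233 with single libraries left out (73 without KO replicate 2, 77 without KO replicate 3, 81 without WT replicate 1, 233 without WT replicate 3); the cause was not tested. With upper-quartile scaling 150 of 182 calls were higher, against 102 of 149 as deposited. The target's adjusted p was 0.0644 with a pseudocount of 0.01. With the replicate number as a block 50 genes were called and 0 of the 10; same-numbered libraries shared no clear deviation (r = 0.0647, -0.129 and 0.0614), so the numbers were not taken as pairs. Depth limits Pgk1 and Gapdh most.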

Other observations

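Other steps of sugar use also have paired genes in these tables, singled out here after their values were seen. Pdha2, the autosomal retrogene for a subunit of pyruvate dehydrogenase, was at 59.8 ± 1.54 FPKM in KO and 60.6 ± 2.04 FPKM in WT libraries, while its X-linked parent Pdha1 was at 1.80 ± 0.263 FPKM in KO and 2.11 ± 0.199 FPKM in WT libraries (SD, n = 3 each). Neither passed limma's threshold (adjusted p = 0.874 for Pdha2 and 0.442 for Pdha1). Pdha1 had a negative value (log2(FPKM + 1) difference -0.15), and the other X-linked parent gene, Pgk1, a positive one (0.23). Pgam1, the widely expressed phosphoglycerate mutase gene, was at 21.2 ± 0.93 FPKM in KO and 22.4 ± 1.11 FPKM in WT libraries, far below Pgam2 in every library. The glucose transporter gene Slc2a1 was at 1.86 ± 0.0699 FPKM in KO and 2.06 ± 0.205 FPKM in WT libraries, far below Slc2a3. Pfkfb1, which encodes an enzyme of fructose 2,6-bisphosphate, was at 1.21, 1.44 and 1.28 FPKM in KO libraries, against 1.07, 0.783 and 0.827 FPKM in WT libraries, and did not pass (limma adjusted p = 0.177).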
